A study of Danio rerio with 15 samples.

Results

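The genes described here encode the proteins of the cytosolic ribosome in 5-day-old zebrafish larvae. They are the rows of the count table whose gene name is rpl or rps followed by a digit, or rplp0, rplp1, rplp2 or rpsa, with the rps6k kinases left out. The rule found 83 of 32520 genes: 46 named for the large subunit, 36 for the small subunit, and rps19bp1, whose name is that of a binding protein of RPS19 and not of a ribosomal protein. Of the 82 subunit genes, 81 passed the filter on low counts, 45 large and 36 small. The gene left out was rpl32 (ENSDARG00000054818), which had a total of 3 counts over the 15 libraries. No row was named rpsa or rpl41. Capital letters in a symbol are those of the gene name table, and some symbols, RPL5 and RPS26 among them, each name 2 zebrafish genes.

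Each ribosome holds one small subunit, which reads the messenger RNA and checks its pairing with transfer RNA, and one large subunit, which joins the amino acids. Most of their proteins are present once per ribosome, so cells make them in matched amounts, and the genes are among the most strongly transcribed in growing tissue. Ribosomal proteins left unassembled are degraded, and some of them, RPL5 and RPL11 above all, bind Mdm2, the ubiquitin ligase that holds p53 in check. In humans, loss of one copy of RPS19, RPL5, RPL11 or RPL35A causes Diamond-Blackfan anaemia.

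Wild-type larvae were sequenced in 3 groups of 5 libraries, named for what their parents had eaten. Adult fish were fed blackworms (Lumbriculus variegatus) for 60 days at 3.5% of body weight, and the worms had first been kept for 14 days in water that held no added sodium arsenite for Control, 2.5 mg/L for Low and 5.0 mg/L for High. Worm arsenic per gram dry weight was below 0.05 µg in Control and 72.47 µg in High, and the labels give 3 values for Low, 32.4, 32.42 and 33.42 µg. The larvae of all groups were reared in medium without added arsenic, so the exposure compared is that of the parents, and whole larvae were extracted at 5 days post fertilization. The labels set the number 20 beside the larvae without saying whether it is per library. They do not say that libraries of a group came from different parents, so p-values measure the spread between these libraries only.

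Totals ran from 21.2 to 59.9 M (mega counts) per library. Markers of neurons, skeletal muscle and blood were present in every group, as in whole larvae. Skeletal muscle markers took 2.07 to 3.90% of the counts in Control libraries, 1.51 to 4.80% in Low libraries and 2.20 to 3.23% in High libraries. Blood markers took 0.0879 to 0.230%, 0.0926 to 0.188% and 0.0801 to 0.290% in Control, Low and High libraries. Digestive markers were more uneven. Pancreas, liver and intestine genes together took 0.132 to 2.97% of the counts in Control, 0.134 to 2.09% in Low and 0.156 to 3.36% in High libraries. Dividing-cell markers took 0.0680 to 0.204%, 0.0883 to 0.221% and 0.118 to 0.267% in Control, Low and High libraries. Of the marker rows, ctrb.3 and SERPINC1 had 0 counts in every group, ctrb.2 in Control and Low, and plk1 in Low. In RNA of whole larvae, fewer cells of a type and less RNA per cell cannot be told apart.

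The share of all counts that fell on ribosomal protein genes overlapped between the 3 groups. These genes took 10.5, 9.39, 7.03, 9.37 and 8.93% of all counts in the 5 Control libraries, 8.78, 9.03, 9.72, 10.1 and 8.84% in the Low libraries, and 10.3, 9.93, 9.26, 9.08 and 9.39% in the High libraries. Control libraries averaged 9.05 ± 1.28%, Low libraries 9.29 ± 0.570% and High libraries 9.59 ± 0.510% (SD, n = 5 each). Both the highest and the lowest library were Control libraries. With the digestive marker counts taken out of the totals, the shares were 9.16 ± 1.33%, 9.34 ± 0.539% and 9.78 ± 0.477% in Control, Low and High.

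The balance between the subunits was tighter than the share. Large subunit genes had 1.37 ± 0.0159 times the counts of small subunit genes in Control libraries, 1.37 ± 0.0150 times in Low libraries and 1.39 ± 0.0141 times in High libraries (SD, n = 5 each). Over all 15 libraries this ratio stayed between 1.35 and 1.41, while the share itself spanned 7.03 to 10.5%. The ratio is one of summed counts, so it follows gene length and the most abundant members. Without the member of highest count in each subunit it was 1.49 for Control, 1.48 for Low and 1.51 for High libraries.

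**Figure D1:**
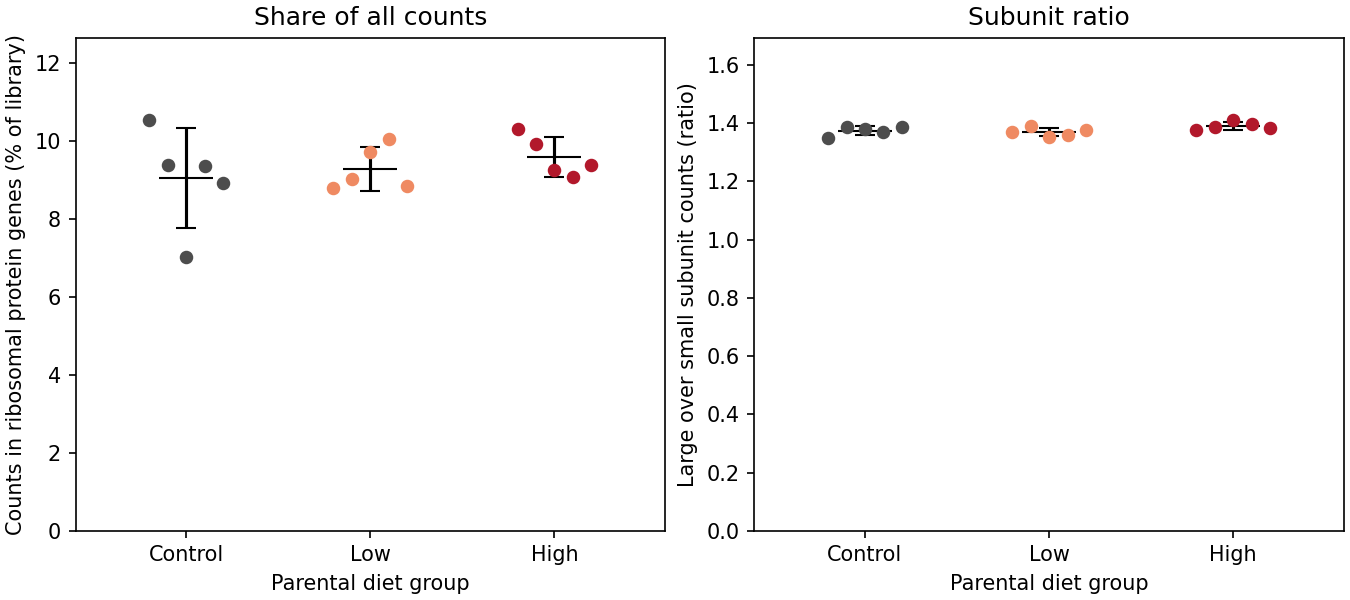
Left, share of each library's counts in ribosomal protein genes (%). Right, counts of large subunit genes over counts of small subunit genes. Points are the 5 libraries of each group, the horizontal bars are means and the error bars SD. The shares spread from 7.03 to 10.5% with overlapping groups, and the ratios lie between 1.35 and 1.41.

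Large and small subunit genes stood high or low together in each library. For each library the median was taken, over the genes of a subunit, of the log2 CPM minus the gene's own mean over the 15 libraries. CPM are counts per 1 M of the scaled library total. Over all 81 genes this median was 0.31, 0.13, -0.54, 0.02 and -0.11 in Control libraries 1 to 5, -0.12, -0.10, 0.04, 0.01 and -0.01 in the Low libraries, and 0.21, 0.13, 0.02, -0.05 and 0.01 in the High libraries. Control 1 and Control 3 were the extremes of all 15, and the Low and High libraries lay between them. The medians of the large and the small subunit differed by 0.0373 at most, in Control 1. The SD of this median was 0.320 among the 5 Control libraries, 0.0683 among the Low libraries and 0.102 among the High libraries.

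**Figure D2:**
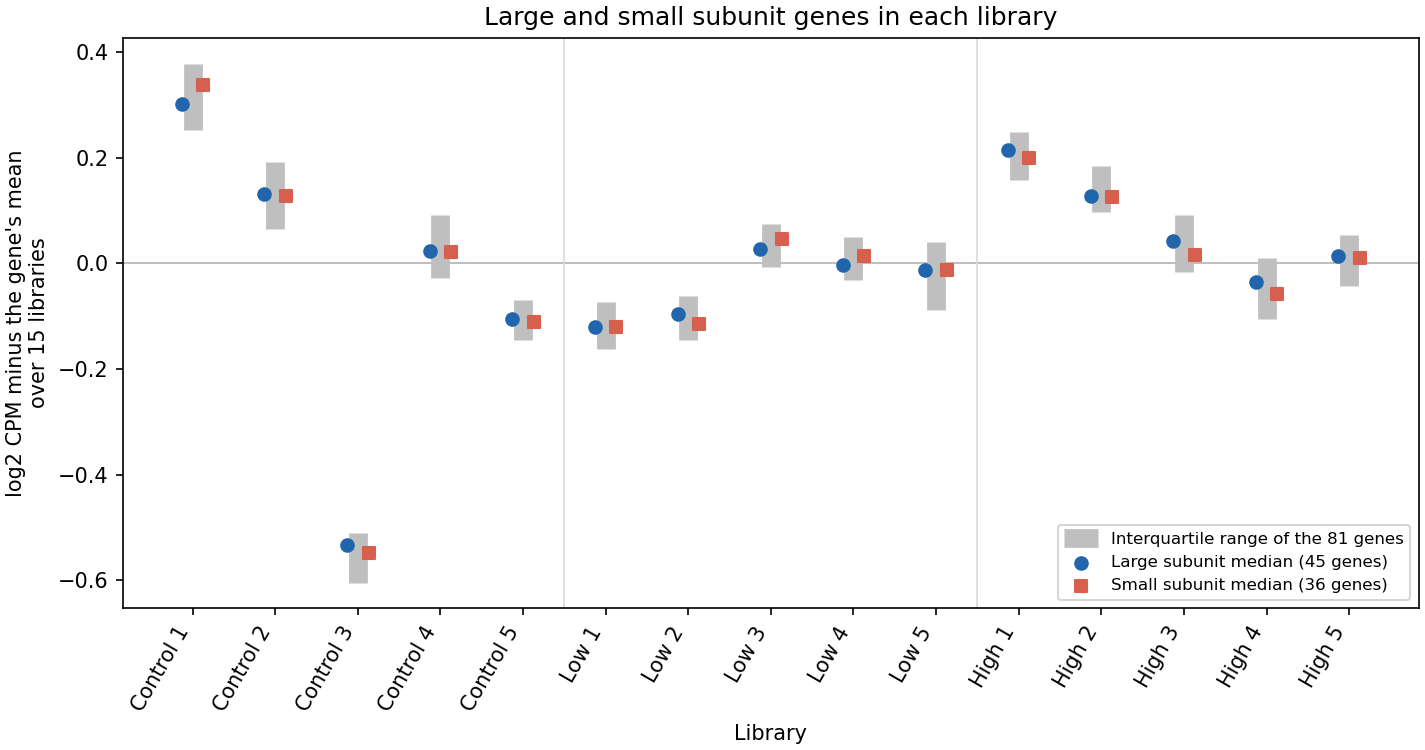
Median deviation of large (circles) and small (squares) subunit genes in each library, as log2 CPM minus the gene's mean over 15 libraries. Grey bars span the interquartile range of the 81 genes. In every library the circle and the square lie within 0.0373 of each other, and Control 3 stands lowest at -0.54.

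Control 3 stood apart for the whole family. In it, 80 of the 81 subunit genes lay below their own mean, and the gene above was RPL7L1. In Control 1, by contrast, 78 of the 81 lay above their mean. High 1 had 79 above the mean, while Low 1 and Control 5 had 5 each. Control 3 also had a TMM scaling factor of 1.11, the highest of the libraries, its digestive markers took 0.142% of the counts and its dividing-cell markers 0.204%; the part of these in its low family median was not tested.

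The members kept to the family median to different degrees. Within groups, the log2 CPM of a member had a median SD of 0.214 over the 81 genes, and of 0.0688 once the family median of each library was taken off. The median SD was 0.285 over all genes tested, and 0.243 over the 394 other genes whose mean log2 CPM was 8 or higher. RPL38 kept closest to the family median, with an SD around it of 0.0248. Others that kept close were RPL18 (0.0283), RPS19 (0.0327) and RPL23 (0.0333). These are proteins of both subunits.

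The members that left the family median were mostly those with few counts. The 63 genes with a mean count of at least 7000 had a median SD around the family of 0.0558, against 0.295 for the 18 genes below that count, so lower counts go with more scatter. Among the loosest were RPS12 (0.901), RPL9 (0.438), RPL21 (0.430), RPL7L1 (0.417) and RPL13A (0.398). For RPL7L1 and RPL9 the SD within groups was lower before the family median was taken off, at 0.285 and 0.414. Several of the low-count genes are second zebrafish copies or relatives of another member: RPL7L1 beside RPL7, RPL22L1 beside RPL22, and rps27l beside rps27.1 and rps27.2. Others bear the plain name of a subunit protein, among them RPL9, RPL12, RPL13A, RPL21 and RPS12. RPS15 and RPL10 had mean counts of only 139 and 242, where the 63 genes had 12089 or more. Reads of near-identical copies may have been divided between rows or left out by the counting. This was not tested for any low-count gene, and the values of all of them are uncertain.

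**Figure D3:**
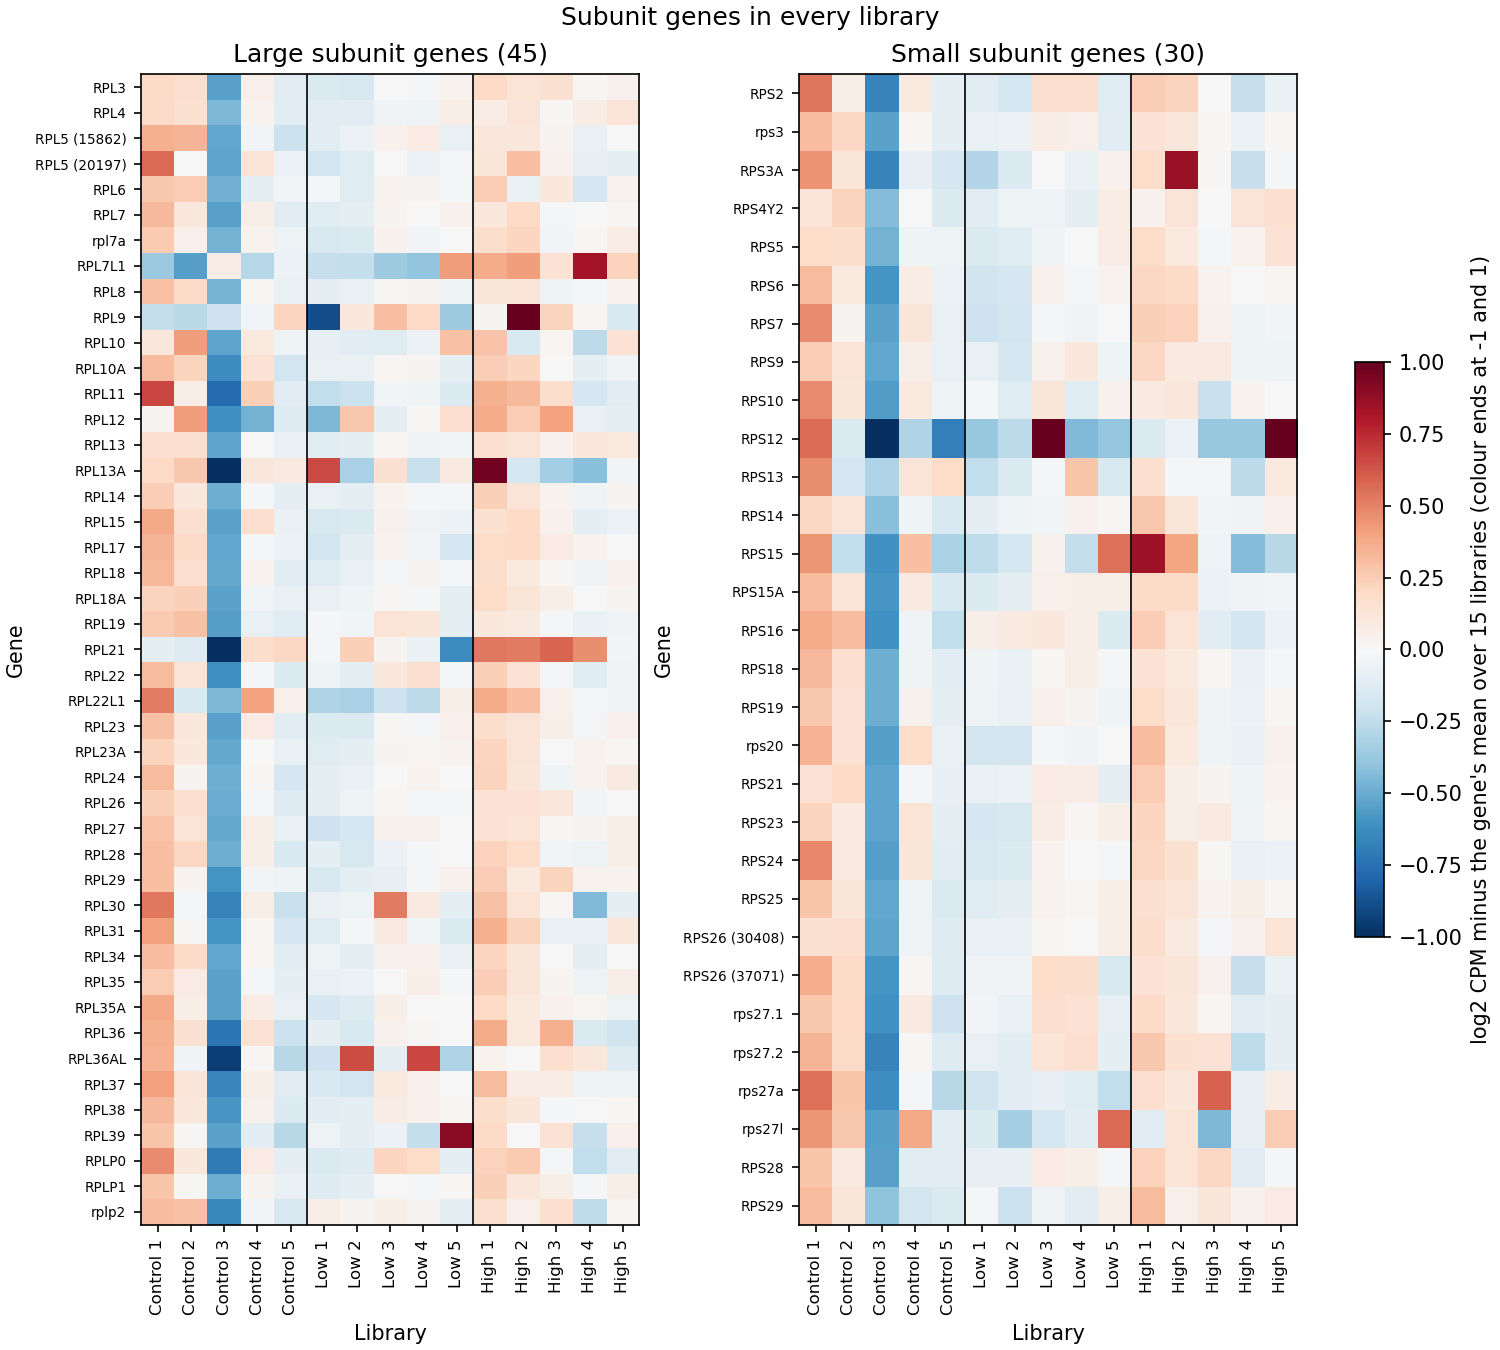
Deviation of subunit genes (rows, 45 large and 30 of the 36 small) from their own mean log2 CPM in each of the 15 libraries (columns), with colour ending at -1 and 1. Control 3 is a blue column in both panels, and RPL7L1, RPL9, RPL13A, RPL21 and RPS12 are rows that break the column pattern.

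No ribosomal protein gene passed between larvae of High and Control parents in edgeR's quasi-likelihood test (Benjamini-Hochberg over 22012 genes, threshold 0.05). The count was 0 of 81, and 0.522% of all genes passed, 0.191% higher and 0.332% lower. At an unadjusted p under 0.05 there were 2 of 81, RPL7L1 and RPL21, and 15.8% of all genes. The fold changes were small and mostly above 0: the median log2 fold change, High over Control, was 0.08 over the members and -0.02 over all genes, with 75 of 81 above 0 against 47.9% of all genes. Large subunit genes had a median of 0.09 (42 of 45 above 0) and small subunit genes 0.07 (33 of 36). That median rested on Control 3: without it, the median was -0.02 and 34 of 81 lay above 0. Without Control 1, the median was 0.17 and 80 lay above 0. It was 0.04 without High 1, and 0.12 without High 4 and without Control 2.

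The precision of that comparison was set by a median SE of 0.13 on the log2 scale. The 95% interval lay inside ±0.5 for 67 of the 81 genes and inside ±1 for 77, so 2-fold differences fell outside the interval of those 77 genes. The fold changes themselves lay within ±0.2 for 73 genes. They ran from -0.16 for rps27l to 0.64 for RPL7L1.

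Between larvae of Low and Control parents, 0 of 81 members passed in the same test, and 0% of all genes. The count over all genes moved with Low 5 and with the tool. It was 507 in edgeR without Low 5 and stayed at 0 without any other single library. DESeq2 called 65 genes and limma voom 1436, with 0 members passing in each of these fits. No member reached an unadjusted p under 0.05, against 9.53% of all genes. The median log2 fold change, Low over Control, was -0.02 (all genes 0.00), with 30 of 81 above 0 against 50.4% of all genes. It was -0.03 for large subunit genes and -0.02 for small subunit genes. Without Control 3 the median was -0.11 with 8 of 81 above 0, and without Control 1 it was 0.07 with 71 above 0. Its sign also turned under other settings, such as without Control 2 (0.02) or with the digestive covariate (0.01). Fold changes ran from -0.32 for RPL22L1 to 1.11 for RPS12, and 75 of 81 lay within ±0.2.

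Between High and Low larvae, again 0 of 81 members passed, with 1.71% of all genes passing, 0.672% higher and 1.04% lower. There were 2 members at an unadjusted p under 0.05, RPL7L1 and RPL22L1, against 21.9% of all genes. The median log2 fold change, High over Low, was 0.11 (all genes -0.01), 0.11 for the large and 0.10 for the small subunit, and 69 of 81 members lay above 0 against 48.3% of all genes. It did not involve Control libraries in its groups, and leaving out each of the 15 libraries in turn gave medians of 0.07 (without High 1) to 0.14 (without High 4). With the mean log2 CPM of digestive markers as a covariate it was 0.06 with 64 above 0, and without scaling 0.05 with 59 above 0. The members moved together within each library, so the counts above 0 in the 3 comparisons do not count independent observations. The family medians of High 3, High 4 and High 5 (0.02, -0.05 and 0.01) lay within the range of the Low libraries, -0.12 to 0.04. The comparisons share libraries, since each group stands in 2 of them, so their values are given side by side and not as support for each other.

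Scaling sets the zero of these values. When libraries were scaled to the ribosomal protein genes themselves, an alternative chosen after seeing the data, the member medians were 0.01 (High against Control), 0.00 (Low against Control) and 0.00 (High against Low). That scaling holds the summed member counts level, so member medians near 0 follow from it and are no finding. The medians over all genes then lay at -0.14, -0.02 and -0.12. Without any scaling, Low against Control had a member median of 0.05 with 69 of 81 above 0. A fold change near 0 here is therefore a value relative to other transcripts and not an amount per larva.

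RPL7L1 (ENSDARG00000042864) was the member with the smallest p in High against Control and in High against Low. RPL7L1 is a relative of the large subunit protein RPL7 that is known in human and yeast cells from ribosome precursors in the nucleolus. It was counted with the large subunit genes by its name only. Its CPM were 26.4, 23.3, 36.1, 28.0 and 32.8 in Control libraries, 29.2, 29.0, 26.7, 26.1 and 45.8 in Low libraries, and 44.3, 45.8, 37.8, 61.2 and 40.3 in High libraries. All 5 High libraries lay above all 5 Control libraries, while Low 5 reached the High range. It was the 1 member whose High and Control libraries did not overlap, and 4.41% of all genes did not overlap in that comparison.

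RPL7L1 averaged 45.9 ± 9.12 CPM in High and 29.3 ± 5.10 CPM in Control (SD, n = 5 each), a log2 fold change of 0.64 (SE 0.17, 95% interval 0.27 to 1.01). Its adjusted p from edgeR was 0.0917, so it did not pass. Against Low, which averaged 31.4 ± 8.19 CPM, the log2 fold change was 0.55 (SE 0.17, adjusted p 0.0960 from edgeR). Low over Control was 0.10 (95% interval -0.27 to 0.46, adjusted p 0.916 from edgeR).

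The call on RPL7L1 depended on the tool and on Low 5. It passed in DESeq2, with adjusted p of 0.0167 (High against Control) and 0.0393 (High against Low), and in limma voom with sample weights, with 0.0416 and 0.00577. It also passed in edgeR without Low 5, with 0.0420 and 0.00845. In that fit 239 and 3778 genes passed in all, against 115 and 377 with all 15 libraries. With the mean log2 CPM of digestive markers as a covariate, the log2 fold changes were 0.56 (adjusted p 0.144, edgeR) and 0.44 (adjusted p 0.270, edgeR). Over all alternatives the adjusted p ran from 0.0167 to 0.483 for High against Control and from 0.00577 to 0.399 for High against Low. Both upper ends came from scaling to the ribosomal protein genes, the alternative added after seeing the data. The libraries with most RPL7L1 in their groups were Control 3, Low 5 and High 4. They also had the most dividing-cell marker counts of their groups, 0.204%, 0.221% and 0.267%. The part of these in the result was not tested.

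RPL7L1 went against its relative RPL7 in the extreme libraries. In Control 1 it lay 0.37 below its own mean on the log2 scale where the family median lay 0.31 above, and in Control 3 it lay 0.08 above where the family median lay 0.54 below. RPL7 itself averaged 2079 ± 434 CPM in Control libraries, 2039 ± 104 in Low libraries and 2174 ± 139 in High libraries, with log2 fold changes of 0.06 for High over Control and -0.03 for Low over Control.

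RPL22 and RPL22L1 are a pair of large subunit paralogs, and in mammals RPL22 represses the messenger RNA of RPL22L1. RPL22L1 (ENSDARG00000010244) had 258, 163, 132, 239.7 and 187 CPM in Control libraries, 147, 144, 157, 151 and 189 CPM in Low libraries, and 234, 223, 187, 180.1 and 177 CPM in High libraries. The Low libraries, with Low 5 apart, lay in a narrow band below all High libraries, and the Control libraries spanned both. The log2 fold change, Low over Control, was -0.32 (SE 0.16, adjusted p 0.560 from edgeR), the smallest p of the members in that comparison. High over Low was 0.35 (SE 0.16, adjusted p 0.225 from edgeR). Leaving out single libraries gave -0.42 to -0.20 for Low over Control and 0.28 to 0.42 for High over Low. Over all alternatives, DESeq2 and limma voom among them, the adjusted p ran from 0.0843 to 0.9999 for Low against Control. For High against Low it ran from 0.0532 to 0.464, so no setting called RPL22L1.

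RPL22 (ENSDARG00000070437) varied less. Its CPM averaged 712 ± 160 over Control, 739.6 ± 55.7 over Low and 752 ± 77.1 over High libraries, and its log2 fold changes were 0.08 for High over Control, 0.06 for Low over Control and 0.02 for High over Low. The adjusted p were 0.840, 0.943 and 0.931 (edgeR). The 3 rps27 genes of the small subunit, a zinc-finger protein family, gave log2 fold changes for High over Control of 0.04 (rps27.1), 0.07 (rps27.2) and -0.16 (rps27l). In mammals the rps27l gene is a target of p53. Here rps27l averaged 28.6 ± 7.42 CPM over Control, 26.1 ± 7.22 over Low and 25.6 ± 4.64 over High libraries.

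RPL11 and the 2 genes named RPL5, whose proteins bind Mdm2, had no call. In Low against Control, the values of RPL11 and RPL5 (ENSDARG00000020197) were among the lowest of the family. RPL11 (ENSDARG00000043509) had 2493, 1639, 916, 1847 and 1449 CPM in Control libraries, 1321, 1349.7, 1538, 1521 and 1422 CPM in Low libraries, and 1999.8, 1961, 1765, 1397 and 1457 CPM in High libraries. Control 1 and Control 3 gave its highest and lowest values. The log2 fold changes were 0.04 for High over Control, -0.22 for Low over Control and 0.26 for High over Low, with adjusted p of 0.950, 0.790 and 0.442 (edgeR). The 2 genes named RPL5, which with RPL11 and the 5S ribosomal RNA forms one particle, averaged 1036 ± 57.9 CPM (ENSDARG00000015862) and 1560.05 ± 183 CPM (ENSDARG00000020197) in High, against 1027 ± 256 and 1562 ± 426 CPM in Control. Their log2 fold changes for High over Control were 0.01 and -0.0017. Low over Control gave -0.04 and -0.14, and High over Low 0.06 and 0.14, with SE of 0.14 and 0.15. The low values in Low over Control depended on single libraries. Leaving out each library in turn gave -0.37 to -0.03 for RPL11 and -0.26 to 0.01 for RPL5 (ENSDARG00000020197).

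RPS19, RPL35A and RPS14, which are tied to anaemia in humans as RPL5 and RPL11 are, had fold changes within ±0.2. RPS19 (ENSDARG00000030602), a small subunit protein needed to mature the 18S ribosomal RNA, averaged 1131 ± 81.5 CPM in High and 1093 ± 205 CPM in Control. Its log2 fold change was 0.05 (95% interval -0.20 to 0.30, adjusted p 0.889 from edgeR). RPL35A of the large subunit and RPS14, a small subunit gene deleted in the 5q- syndrome of human bone marrow, had log2 fold changes for High over Control of 0.05 and 0.12, with adjusted p of 0.890 and 0.647 (edgeR). For Low over Control the 3 genes RPS19, RPL35A and RPS14 had -0.01, -0.06 and 0.02.

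The stalk proteins, which recruit elongation factors to the large subunit, had no call. RPLP0 (ENSDARG00000051783) averaged 5106 ± 1405 CPM over Control, 5082 ± 640 over Low and 5176 ± 773 over High libraries, with a log2 fold change for High over Control of 0.02 (SE 0.18). RPLP1 and rplp2 had 0.12 (SE 0.12) and 0.04 (SE 0.15). In rplp2 the library Low 5 stood below the other 4 Low libraries, at 834 CPM against 902 to 929.8.

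Members known from signalling showed no call. RPS6, the small subunit protein that the S6 kinases phosphorylate, averaged 2286 ± 486 CPM over Control, 2202 ± 174 over Low and 2445 ± 172 over High libraries. Its log2 fold change for High over Low was 0.15 (SE 0.13, adjusted p 0.512 from edgeR). rps27a, which in mammals encodes ubiquitin fused to a small subunit protein, had 54.0, 44.7, 24.0, 36.4 and 30.4 CPM in Control libraries, 32.1, 34.1, 34.9, 34.0 and 31.0 CPM in Low libraries, and 41.5, 39.7, 55.5, 34.8 and 38.9 CPM in High libraries. Its log2 fold change for High over Low was 0.34 (SE 0.18, adjusted p 0.274 from edgeR), and the Low libraries lay within 31.0 to 34.9 CPM, with High 4 inside that range. rps3, a small subunit protein at the entry of the messenger RNA, had 0.07 (SE 0.13).

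Among the low-count members, single libraries carried the largest values. RPS12 (ENSDARG00000036875), of the small subunit, had 54.9, 33.6, 17.6, 30.2 and 23.1 CPM in Control libraries, 28.7, 31.0, 228, 27.3 and 28.4 CPM in Low libraries, and 33.6, 35.8, 28.7, 28.6 and 104 CPM in High libraries. Low 3 and High 5 stood far above all others, so the largest fold change of a member, 1.11 for Low over Control (SE 0.66, adjusted p 0.628 from edgeR), rested on 1 library and was -0.14 without Low 3. RPL21 (ENSDARG00000010516), a large subunit protein, had 175, 170.3, 53.8, 211 and 216 CPM in Control libraries, 184, 219.6, 190.04, 178 and 119.9 CPM in Low libraries, and 269, 268, 279, 258 and 183 CPM in High libraries. Its log2 fold change, High over Control, was 0.61 (95% interval 0.00 to 1.21, adjusted p 0.314 from edgeR), and 4 of the 5 High libraries lay above all Control libraries. Without Control 3 it was 0.40.

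RPL13 was the 1 member whose High libraries all lay above its Low libraries, at 1475 to 1596 CPM against 1316 to 1448 CPM, while 4.31% of all genes did not overlap in High against Low. Its log2 fold change was 0.16 (SE 0.11, adjusted p 0.406 from edgeR). No member had groups that did not overlap in Low against Control, where 1.31% of all genes had. The remaining members of smallest p, none of which passed, were RPL9 and RPL12 (High over Control 0.40 and 0.29), RPL36AL and RPL39 (Low over Control 0.33 and 0.26) and RPS29 (High over Low 0.19), with adjusted p of 0.457, 0.478, 0.690, 0.746 and 0.357 (edgeR). Single libraries carried several of these: RPL9 had 0.13 without High 2, RPL39 -0.01 without Low 5, and RPL36AL 0.18 without Control 3 and 0.19 without Low 4. RPL12 ran from 0.21 to 0.46 when single libraries were left out, with 0.46 without Control 2. RPS29 had 0.09 when scaled to the ribosomal protein genes. The binding protein rps19bp1 averaged 22.4 ± 2.13 CPM in High and 20.1 ± 1.59 CPM in Control, a log2 fold change of 0.16 (SE 0.09, adjusted p 0.427 from edgeR).

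**Figure D4:**
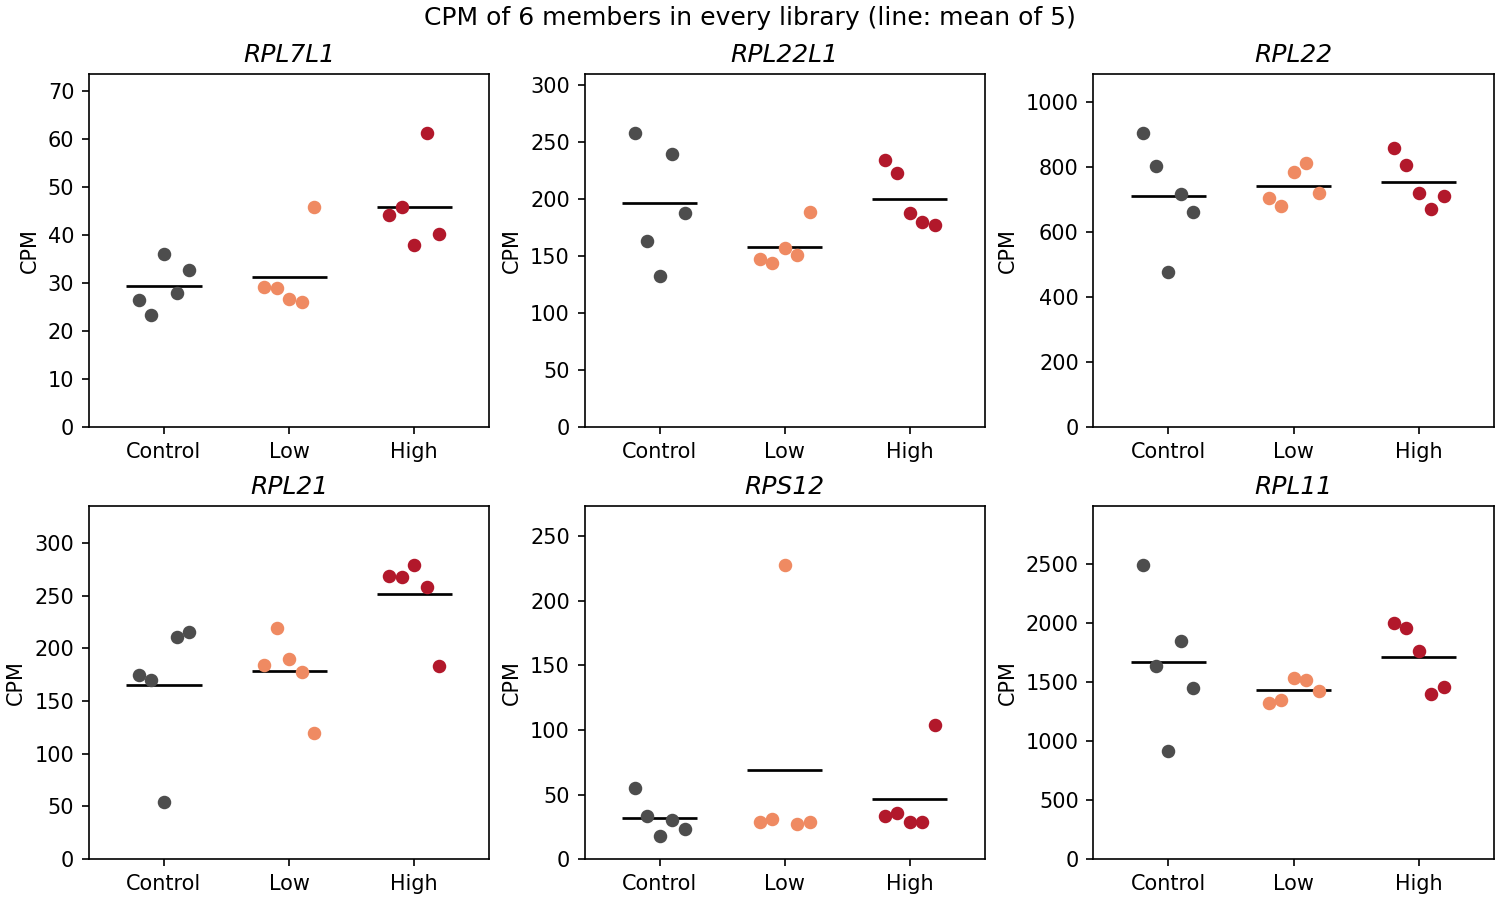
CPM of 6 members in every library, by group, with the line at the mean of 5 libraries and each axis starting at 0. The 5 High points of RPL7L1 lie above all Control points, 4 of the 5 Low points of RPL22L1 lie in a narrow band with Low 5 above it, and Low 3 of RPS12 stands alone at 228 CPM.

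Ribosomal protein genes outside the naming rule had values in the range of the members. RPSA2, of the small subunit, averaged 3601 ± 668 CPM over Control, 3572 ± 145 over Low and 3854 ± 316 over High libraries. Its log2 fold change, High over Control, was 0.10 (SE 0.12, adjusted p 0.753 from edgeR). FAU, which encodes a ubiquitin-like domain joined to a ribosomal protein, had 0.05.

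Genes for the factors that build ribosomes lay mostly above 0 in High against Control. Of 89 assembly factors and nucleolar proteins tested, 80 lay above 0 in High against Control, against 47.9% of all genes. Their median log2 fold change was 0.38, and 49 had an unadjusted p under 0.05 against 15.8% of all genes. Genes of a list may move together within a library, as the members did. Such counts, here and for the lists below, therefore do not count independent observations. Of the 89, 1 rose past the threshold and none fell, where 0.522% of all genes passed. The gene was RRP15, which is needed to process precursors of large subunit RNA. RRP15 averaged 19.2 ± 1.81 CPM in High and 13.8 ± 1.51 CPM in Control, a log2 fold change of 0.48 (SE 0.10, adjusted p 0.0416 from edgeR). The list's median was 0.15 in Low against Control (83 of 89 above 0, against 50.4% of all genes). In High against Low it was 0.24 (73 of 89, against 48.3% of all genes), with 0 passing in either.

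The level of the assembly list, as mean log2 CPM, was 4.13, 4.33, 4.50, 4.19 and 4.42 in Control libraries, 4.39, 4.50, 4.32, 4.25 and 4.74 in Low libraries, and 4.52, 4.61, 4.36, 5.03 and 4.70 in High libraries. Control 3, Low 5 and High 4 stood highest in their groups, as they did for dividing-cell markers, and 1 High library, High 3, lay inside the Control range. Without High 4 the median of High against Control was 0.27. With the digestive covariate it was 0.30 and 0 genes passed. In DESeq2, 23 of the list were higher and 1 lower, where DESeq2 called 944 genes in all. RRP15 passed in 3 of the 10 fits that each left out a High or Control library, and had an adjusted p of 0.112 without Control 4, 0.0628 with the digestive covariate and 0.130 with the replicate block (edgeR). It passed in DESeq2 (adjusted p 0.000523) and in limma voom (adjusted p 0.0341), which called 944 and 254 genes in all.

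Mitochondrial ribosomal proteins form the separate ribosome that translates the mitochondrial genome. Their median was 0.27 in High against Control, with 61 of 68 above 0 against 47.9% of all genes. Of the 68, 38 had an unadjusted p under 0.05 against 15.8% of all genes, and 0 passed. In Low against Control the median was 0.07 (52 of 68 above 0, against 50.4% of all genes). In High against Low it was 0.19 (58 of 68, against 48.3% of all genes). The list's mean log2 CPM was 4.09 ± 0.136 over Control, 4.16 ± 0.125 over Low and 4.33 ± 0.0710 over High libraries. Of the High libraries, 1 lay inside the Control range, which reached 4.23. DESeq2 called 13 of the list in High against Control, of its 944 genes in all.

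RNA polymerases I and III and their factors, which make the ribosomal and transfer RNA, had a median of 0.19 in High against Control. Of the 28 genes tested, 25 lay above 0, against 47.9% of all genes. Of the 28, 1 passed, where 0.522% of all genes did. The gene was POLR1F, a subunit of polymerase I. POLR1F had 11.4 ± 1.101 CPM in High and 7.70 ± 1.15 CPM in Control (log2 fold change 0.57, adjusted p 0.0487 from edgeR). It passed in 2 of the 10 fits that left out a High or Control library, and had 0.121 without Control 4, 0.0682 with the digestive covariate and 0.132 with the replicate block. In DESeq2 and limma voom, which called 944 and 254 genes in all, POLR1F passed at adjusted p of 0.000624 and 0.0312. The list's median was 0.11 in both Low against Control and High against Low.

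Translation factors showed little. The 46 initiation factors had medians of 0.11, 0.01 and 0.06 in High against Control, Low against Control and High against Low. In High against Low 1 of the 46 passed, where 1.71% of all genes did. The gene was EIF1B, which helps select the start codon, and it rose. EIF1B had 129 ± 10.4 CPM in High and 95.5 ± 13.6 CPM in Low (adjusted p 0.0489 from edgeR). It passed in 2 of 10 fits without 1 of those libraries. It had an adjusted p of 0.1501 with the digestive covariate and 0.108 with the replicate block. DESeq2 and limma voom called EIF1B at adjusted p of 0.00419 and 0.00357, among 1666 and 4575 genes in all. The 16 elongation and release factors had medians of 0.05, 0.01 and 0.07, with 0 passing. The 12 ribosome-associated and other genes listed for a pyrimidine tract at their start in mammals had medians of 0.00, 0.04 and 0.04, with 0 passing. Their starts were not checked here.

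**Figure D5:**
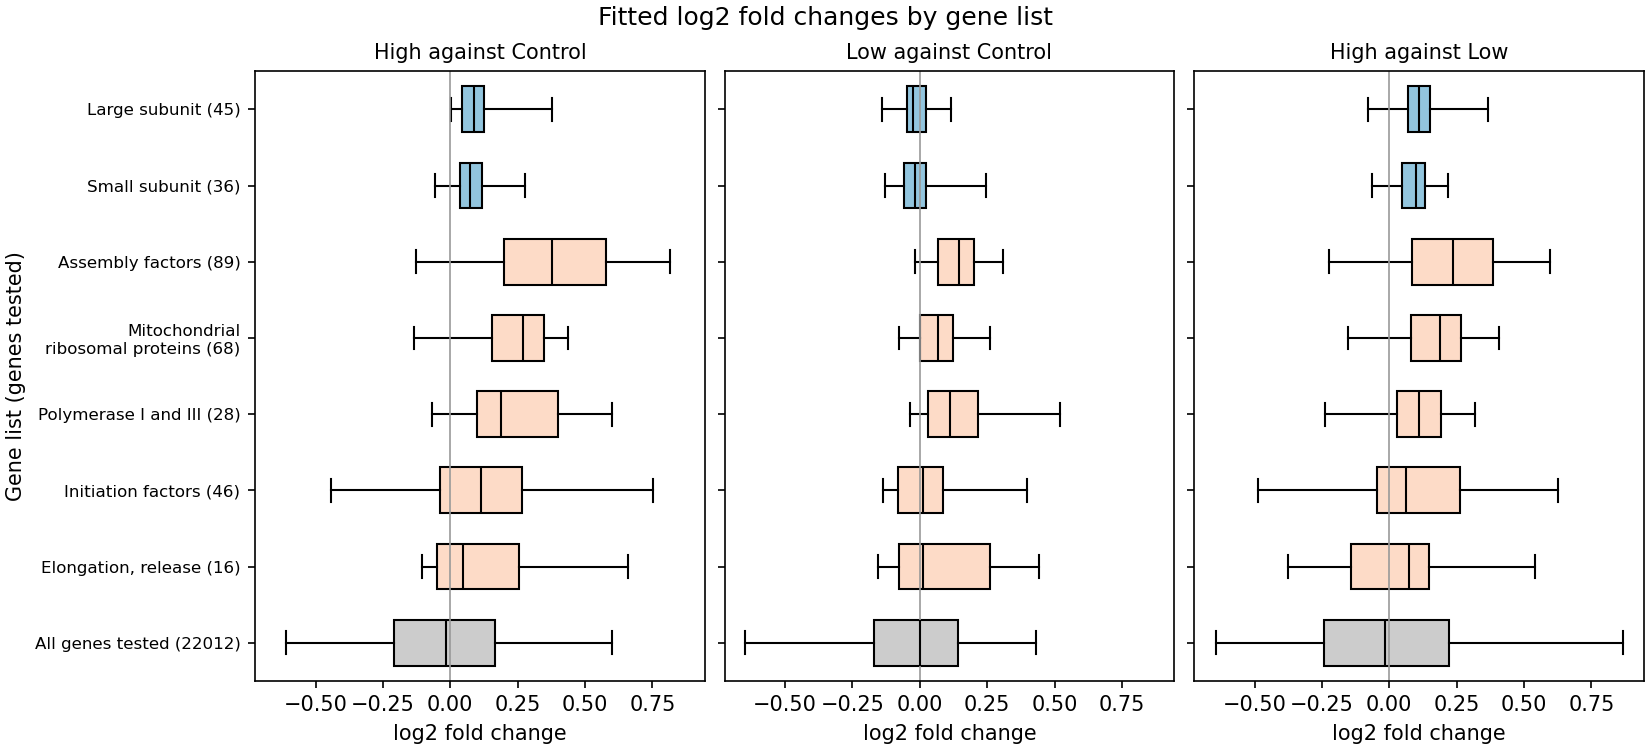
Fitted log2 fold changes by gene list in the 3 comparisons, with the number of genes tested. Boxes span the interquartile range, the black line is the median, and whiskers run from the 5th to the 95th percentile. In High against Control the assembly factor box lies highest, at a median of 0.38, and both ribosomal protein boxes lie near 0.08.

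Calls among genes upstream and downstream of the ribosome fell on SESN1, bbc3 and cdkn1a. TOR and the S6 kinases drive translation of ribosomal protein messengers, but their list holds inhibitors of TOR as well as activators. Its median over 20 genes was -0.08 in High against Control, 0.06 in Low against Control and -0.11 in High against Low. With opposing members, this median gives no direction for the pathway. In High against Low 1 of the 20 passed, where 1.71% of all genes did. That gene, SESN1, an inhibitor of TOR, fell to 226 ± 31.4 CPM in High, against 416 ± 104 CPM in Low (log2 fold change -0.88, adjusted p 0.0280 from edgeR). SESN1 is also a p53 target and stands in the p53 list of 14 genes. As a member, rps27l was left out of that list.

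In the p53 list, 1 of 14 genes passed in High against Control (0.522% of all genes), 0 in Low against Control and 3 in High against Low (1.71% of all genes). The gene bbc3, which promotes cell death, fell in High against Control, at 4.49 ± 1.44 CPM against 10.4 ± 2.89 CPM (log2 fold change -1.21, adjusted p 0.0409 from edgeR). It also fell in High against Low, which averaged 9.81 ± 2.00 CPM (-1.13, adjusted p 0.0344 from edgeR). The cell cycle inhibitor cdkn1a rose in High against Low, at 9.01 ± 2.36 CPM in High and 3.70 ± 1.67 CPM in Low (log2 fold change 1.28, adjusted p 0.0243 from edgeR). The p53 list's medians were -0.11, -0.16 and -0.11 in High against Control, Low against Control and High against Low. SESN1 passed in 4 of the 10 fits that left out a High or Low library, cdkn1a in 3, and bbc3 in 3 in each comparison. With the digestive covariate none of these 3 genes passed: the adjusted p (edgeR) of bbc3 were 0.0530 (High against Control) and 0.0929 (High against Low), that of SESN1 0.0690 and that of cdkn1a 0.0532. With the replicate number as a block they were 0.134 and 0.104 for bbc3 in these comparisons and 0.0951 for SESN1, while cdkn1a passed at 0.0447. All 3 genes kept their calls in DESeq2 and limma voom. In High against Low the adjusted p were 0.000719 and 0.00537 for bbc3 and 0.000277 and 0.00260 for SESN1. Those of cdkn1a were 0.000138 and 0.00103. The tools called 1666 and 4575 genes in that comparison. For bbc3 in High against Control they gave 0.000360 and 0.0378, among 944 and 254 genes called.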

How the data were processed

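RNA of whole larvae was sequenced in 15 libraries, 5 per group. The authors deposited 1 table of read counts per Ensembl gene and library, whole numbers with no normalization, per the file headers and the values. Trimmomatic, FastQC, MultiQC and DESeq2 are listed, with no version, in the submitters' processing notes, beside the builds mm10 and GRCz11. The sources used here name neither aligner nor counter nor the use of strand, so overlapping or near-identical genes cannot be told apart. Columns were matched to samples by the library names in the labels. The 15 trailing lines that name no gene were left out. Gene names matched 29201 of 32520 identifiers.

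The default filterByExpr filter kept 22012 genes, and TMM factors scaled the libraries. The robust quasi-likelihood test of edgeR 4.0.16 (R 4.3.3) used all 15 libraries, each group with 1 coefficient, with Benjamini-Hochberg adjustment over all genes and a threshold of 0.05. Log2 CPM carry a prior count of 2. Members were read off that fit; sums, medians and ratios over members were not tested. The common dispersion was 0.134. The test was run on simulated counts first. Libraries of a group differed by more than sampling noise (chi-square per gene 15.0 or higher).

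The members and lists were chosen with earlier results of these data known. Named are the 5 members of smallest p per comparison and passing genes of the other lists. Also named are 20 of 22 members listed by role (rpsa and rpl41 have no row). Of the 434 written names of the lists, 336 matched by symbol, 65 matched without a copy letter and 33 had no match. Part of the rule, naming members by level per coding length, was not applied, as no lengths were used here; nor are sequences or promoter starts shown. A few genes are not reported here by name; counts and medians include them. Alternatives were RLE, upper quartile and no scaling, TMM without the members, 2 other filters, DESeq2 1.42.0, limma 3.58.1 voom with sample weights, 2 groups only, a replicate block, a digestive covariate, leaving out each library and, added after seeing the data, scaling to the members.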

Additional observations from a re-analysis of the deposited data

Results flagged for a closer look

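Among 90 sets of 5 libraries (27 named members and 3 family measures in each of 3 groups), 13 held a library set apart. Its gap to its nearest neighbour exceeded 0.71 of the group's range. Chance gives about 1 in 20 for independent sets. These sets are not independent, and some members were named for their p in these data, so that rate is no yardstick for the 13. Low 5 was set apart in 5 members. It was high in RPL7L1 (45.8 CPM against 26.1 to 29.2 in the other 4 Low libraries), RPL22L1 (189 against 144 to 157), RPL39 (47.4 against 21.4 to 24.5) and RPL10 (10.4 against 7.77 to 8.14), and low in rplp2 (834 against 902 to 929.8). Low 5 also had 2.09% of its counts in digestive markers, against 0.134 to 0.223% in the other Low libraries. Its dividing-cell markers took 0.221%, against 0.0883 to 0.107%, and its skeletal muscle markers 4.80%, against 1.51 to 1.69%. The part of these was not tested.

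Control 3 was set apart by low values of RPL13A (38.1 CPM against 82.8 to 93.9) and RPL21 (53.8 against 170.3 to 216). RPL21 was low in High 5 as well, at 183 CPM against 258 to 279. RPS12 was high in Low 3 (228 CPM against 27.3 to 31.0) and in High 5 (104 against 28.6 to 35.8). RPL13A was high in High 1 (152 CPM against 58.3 to 76.4), as was RPS29 (728 against 602 to 634), and RPL9 was high in High 2 (274 CPM against 119 to 154).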

How the results depend on the processing

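Of 1863 values of named members under 27 alternatives, 1857 kept their call; the 6 that gained one were RPL7L1 in High against Control and in High against Low, under DESeq2, limma voom and without Low 5. In those settings 1 member passed in each of these comparisons, and leaving out each library gave 0 to 1. No called value changed sign, and 171 values without a call did. Of 279 summary values, 267 were labelled unchanged. Counts of passing members had to stay equal, and the other values had to move by less than an SD between libraries. For the member medians that SD was 0.198, more than any setting moved them, also where their sign turned. The label therefore does not show that the medians are stable. The large minus small subunit median, 0.0156 in High against Control, was -0.00933 with the digestive covariate and ran from -0.00355 (without High 4) to 0.0290 without single libraries; in High against Low it ran from 0.0123 to 0.0307. Without the highest member of each subunit, the count ratio was 1.49 (Control), 1.48 (Low) and 1.51 (High). With the replicate number as a block, 0 members passed, the member median of High against Control was 0.09 and RPL7L1 had 0.65 (adjusted p 0.162, edgeR). The numbers are not taken to pair samples: correlations of same-numbered libraries ran from -0.541 to 0.537. Over all genes, calls in High against Control, Low against Control and High against Low were 115, 0 and 377 in edgeR, 20, 1 and 106 with the block, 944, 65 and 1666 in DESeq2, and 254, 1436 and 4575 in voom. Among single libraries, Control 1 and Control 3 moved the member medians of the comparisons with Control most, and High 1 and High 4 that of High against Low.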
